A study of Rattus norvegicus with 2 samples.

Results

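The genes of the rat major histocompatibility complex (MHC) and of antigen presentation were followed in total liver RNA. Members were the probes whose deposited gene symbol begins with RT1-, the name of the rat MHC, or is Cd74, B2m, Tap1, Tap2, Tapbp, Ciita, Cd80, Cd83, Cd86 or Cd1d1. They came to 61 of 41012 probes, for 44 of 17119 genes with a symbol. A detection letter P, taken here as detected, stood on at least 1 array for 48 probes and 35 genes, and on both arrays for 47 probes. The members comprised 26 class I genes, 8 class II genes, and 10 genes of the partner chains, peptide loading and costimulation.

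All animals were male Wistar rats of 22 weeks of age, given 52% alcohol at 1% of body weight for 7 weeks to produce a fatty liver. The propolis group (sub-group AT-EEP) then received EEP, read here as the propolis extract of the series title, in a 50% ethanol solution at 0.1% of body weight for 4 weeks. The saline group (sub-group AT-NS) received normal saline in place of it at the same dose and for the same time, so the groups also differed in the ethanol of the solution. Both groups had been given alcohol, and rats without alcohol were not analysed here. RNA of 6 rats per group was pooled and put on 1 Agilent one-colour array, so that 2 arrays carry every value below, there is no replicate check, and no p-value was computed. Differences are on the log2 scale and negative where the propolis pool was lower, and a gene is read by its brightest detected probe unless its other probes are named.

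MHC class I molecules are carried by nearly all nucleated cells and show peptides from inside the cell to CD8+ T cells. Their heavy chain pairs with beta-2 microglobulin, and the peptides are cut by the proteasome and moved into the endoplasmic reticulum by the transporter Tap1 and Tap2. MHC class II molecules are carried mainly by macrophages, dendritic cells and B cells and show peptides taken up from outside the cell to CD4+ T cells. In liver, class I is present on hepatocytes and on non-parenchymal cells, while class II belongs mostly to the latter.

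Class I and class II genes differed in their pattern between the pools. All 23 detected class I genes were lower in the propolis pool, with a median difference of -0.46 (1.37-fold lower) and a range from -2.30 to -0.17. The 5 detected class II genes had a median of 0.02, with 3 of them above 0, against 52.4% of all genes, and 2 below. Of these 5, 4 lay above the highest class I value of -0.17, and the exception was RT1-DMa at -0.92. Most of all detected genes lay above it too, as their lower quartile was -0.21 and their median 0.02. The nearest of the 4, RT1-Db2 at -0.14, lay close to it. The class I median was 0.48 log2 units below the class II median, a difference given as -0.48. Over all 11916 genes detected on at least 1 array, 47.4% lay below 0 and the median was 0.02. The sizes were small: no member was at least 2-fold higher in the propolis pool and 1 was at least 2-fold lower, RT1-M4, which was detected on the saline array only. Its propolis signal was below detection, and against the lowest detected value it was at least 1.30-fold lower, so that with this bound, or with P required on both arrays, no member was at least 2-fold lower. By the same rule 5.09% of all genes were that much lower and 3.58% that much higher.

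**Figure D1:**
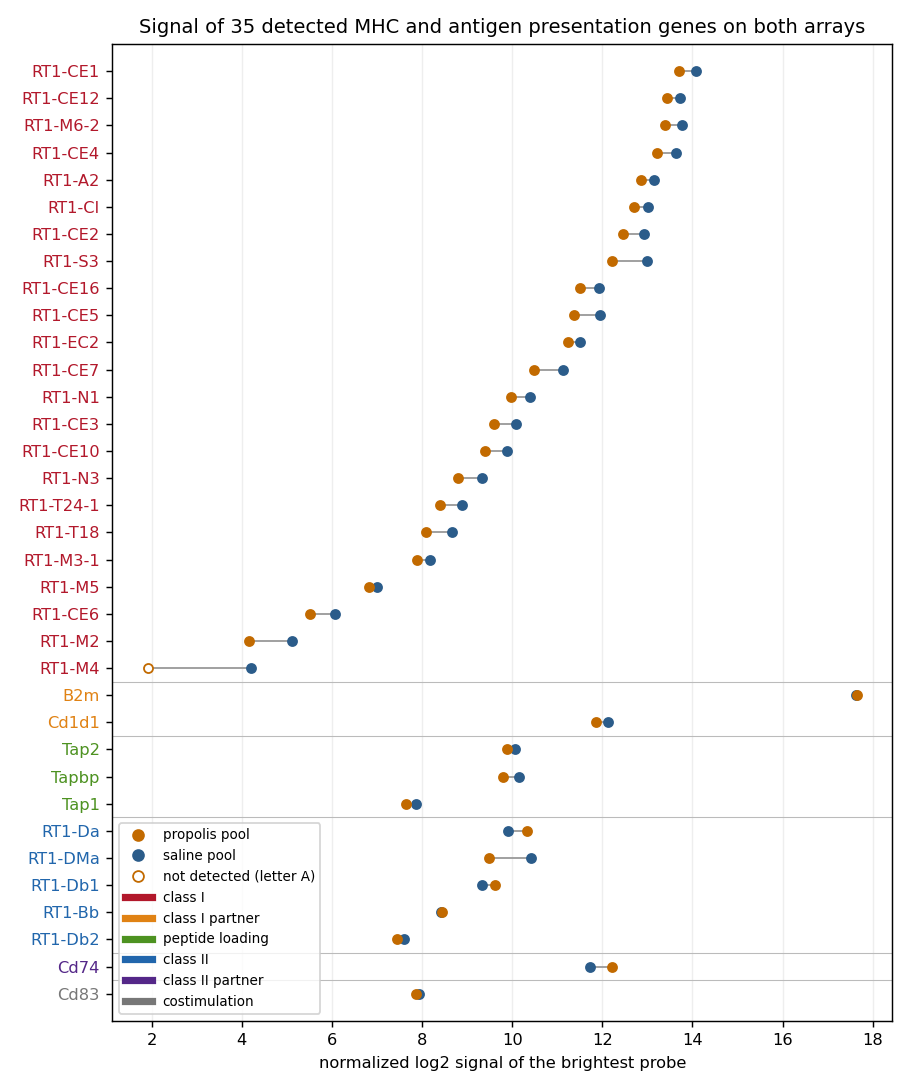
Normalized log2 signal (x axis) of the brightest probe of each of the 35 detected genes (y axis), with the propolis pool in orange, the saline pool in blue and an open circle where the letter was not P. In all 23 class I genes the propolis point lies to the left of the saline point, whereas in RT1-Da, RT1-Db1 and Cd74 it lies to the right.

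The 44 members included 9 genes without a detected probe. These were the class I genes RT1-A3, RT1-M10-1 and RT1-T24-2, the class II genes RT1-Ba, RT1-DOa and RT1-DOb, the class II transactivator gene Ciita, and the costimulatory genes Cd80 and Cd86. Their signals were at most 3.91 on either array, near or below the lowest detected value of 3.83 on both arrays, so that no fold was formed for them. Class I genes spanned mean signals from 3.06 to 13.90, with a median of 10.81, and class II genes from 7.52 to 10.12. These signals depend on each probe, so that they do not rank the genes by abundance. The class I genes are close copies of each other, RT1 is highly variable between rat strains, and probe sequences were not used here. A probe may therefore bind the transcripts of several class I genes, and the 23 differences are not 23 separate measurements.

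The classical class I gene RT1-A2, which encodes the main peptide-presenting heavy chain of rat cells, had signals of 12.86 in the propolis pool and 13.14 in the saline pool (-0.28). Its second probe gave 11.84 against 12.48 (-0.64). Both probes were lower in the propolis pool, by differing amounts, and they overlap in the deposited coordinates (chromosome 20, 5024064 to 5024217 and 5024199 to 5024258, of a genome build that the sources used here do not name).

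The 12 detected genes named RT1-C or RT1-E had a median of -0.44 and a range from -0.64 to -0.27 by their brightest probes. The brightest, RT1-CE1, read 13.71 in the propolis pool and 14.09 in the saline pool (1.30-fold lower). RT1-CE7 lay furthest from 0, at 10.49 against 11.12 (1.56-fold lower). RT1-CE2 read 12.47 against 12.93, RT1-CE16 11.49 against 11.92 and RT1-CE3 9.59 against 10.08, each between 1.35-fold and 1.41-fold lower.

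Second probes varied more. RT1-CE4 read 13.22 against 13.64 (-0.42) and by a dimmer probe 8.09 against 8.27 (-0.18). The 4 probes of RT1-EC2 ranged from -0.93 to 0.01, and those of RT1-Cl read -0.31 and -0.69. RT1-CE5 was 1.49-fold lower by its bright probe (11.37 against 11.94) but 0.51 log2 units higher by a dim one (5.36 against 4.85). Of the 32 detected class I probes, 30 lay below 0, against 46.6% of all detected probes. The 2 exceptions were the dim RT1-CE5 probe and 1 RT1-EC2 probe at 0.01. The robust SD of a difference per probe, taken from the 2595 genes that had more than 1 probe with P on both, was 0.16 log2 units over all of these genes, 0.31 at mean signals under 6 and 0.10 at 12 or more. This spread covers probes on the same 2 arrays and leaves out animals and pools.

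The class Ib genes of the RT1-N, RT1-S and RT1-T groups, which encode less variable class I molecules with narrower roles, had a median of -0.52. RT1-S3 had the lowest value among class I genes with a mean signal of at least 8, at 12.22 in the propolis pool and 12.99 in the saline pool (1.70-fold lower). Its second probe read 12.02 against 12.77, and thus the same difference within 0.02 log2 units (-0.77 and -0.76). These probes lie on chromosome 20 from 2817942 to 2818001 and from 2820059 to 2820117 in the deposited coordinates. RT1-T18 read 8.09 against 8.66 (-0.57, and -0.31 by a second probe), RT1-N3 8.80 against 9.32 (-0.52), RT1-T24-1 8.39 against 8.87 (-0.49) and RT1-N1 9.97 against 10.40 (-0.43).

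The RT1-M genes varied most. RT1-M3-1, whose mouse counterpart presents formylated bacterial peptides, read 7.89 against 8.18 (-0.29), and RT1-M5 read 6.82 against 6.99 (-0.17), the smallest class I difference. RT1-M6-2 read 13.39 against 13.78 (-0.39), while its other probe, at 1.91 and 2.09, was detected on neither array. Whether the bright probe reads RT1-M6-2 or other class I transcripts was not tested. RT1-M2 read 4.16 against 5.12 (-0.96), close to the lowest detected value. RT1-M4 had a saline signal of 4.21 with the letter P and a propolis signal of 1.91 without it. With RT1-M4 at its bound the class I median was -0.43, and over the 19 class I genes with P on both arrays and a mean signal of at least 8 it was also -0.43, with all 19 below 0 against 46.9% of all such genes. Of the 23 detected class I genes, 4 were at least 1.5-fold lower, against 10.2% of all genes.

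**Figure D2:**
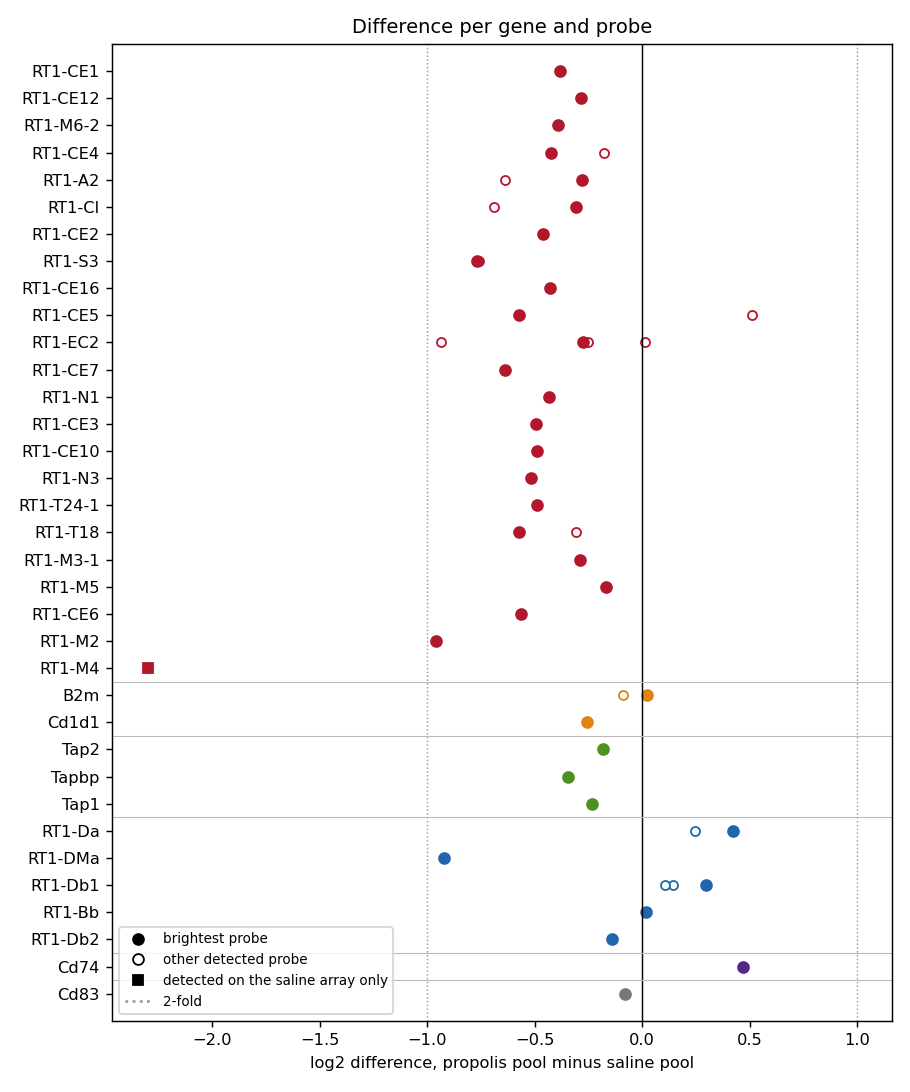
Log2 difference between the pools (x axis) for each detected gene (y axis, in the order and colours of the plot of signals), with filled symbols for the brightest probe, open circles for other detected probes and a square for RT1-M4. Class I brightest probes form a band from -0.96 to -0.17 apart from RT1-M4, whose measured value is -2.30, and class II genes apart from RT1-DMa lie from -0.14 to 0.42.

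Promoters of 37 of the 44 members were found in RefSeq (rat assembly GRCr8, strain BN, so not the Wistar animals themselves), as 250 bases before and 50 after the start of each gene. Windows of 80 bases that hold the class I enhancer element searched for, known as enhancer A, are shown because 4 detected class I genes share it, with the exact letters searched in capitals:
RT1-A2: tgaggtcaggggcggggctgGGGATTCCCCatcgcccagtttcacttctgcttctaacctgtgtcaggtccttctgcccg
RT1-CE4: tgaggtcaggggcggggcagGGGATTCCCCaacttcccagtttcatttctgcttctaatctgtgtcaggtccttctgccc
RT1-CE10: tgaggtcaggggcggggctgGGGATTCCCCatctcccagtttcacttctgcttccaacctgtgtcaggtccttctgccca
RT1-CE16: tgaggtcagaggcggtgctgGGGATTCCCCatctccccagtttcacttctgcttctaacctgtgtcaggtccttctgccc
These windows lie at chr20:4872678-4872757, plus strand, chr20:3509290-3509369, minus strand, chr20:3385113-3385192, minus strand and chr20:3265514-3265593, minus strand. On either strand, 5 of 20 class I promoters held the element, the fifth being that of RT1-A3, which was not detected. None of 8 class II promoters did, and 0.113% of 27457 genes with a promoter did. The class I promoters are copies of each other, so their matches are not independent, and a match of letters is not a site shown to be used. RT1-A2, RT1-CE4, RT1-CE10 and RT1-CE16 differed by -0.28, -0.42, -0.49 and -0.43 by their brightest probes, within the range of class I genes whose promoters did not hold it.

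The median of the peptide loading genes lay nearer to 0 than that of the class I heavy chains, though single genes of both groups overlapped. B2m, the light chain shared by class I molecules, was bright and nearly level, at 17.65 in the propolis pool and 17.63 in the saline pool (0.02) and by a second probe 16.85 against 16.93 (-0.09). Cd1d1, a class I-like molecule that shows lipids to natural killer T cells, read 11.86 against 12.12 (-0.26). Tap1 and Tap2, the subunits of the peptide transporter, read 7.64 against 7.87 (-0.23) and 9.89 against 10.07 (-0.18). Tapbp, or tapasin, which bridges the transporter and class I, read 9.80 against 10.14 (-0.35). All 3 loading genes were lower in the propolis pool, against 47.4% of all genes, with a median of -0.23. The probes of B2m lay on opposite sides of 0.

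The interferon-stimulated response element, a sequence bound by interferon regulatory factors and searched as GAAA, any 2 bases and GAAA again on either strand, was held by all 3 loading promoters, by that of B2m, and by the class Ib genes RT1-S3 and RT1-N3. The windows are shown because RT1-S3 had 2 concordant low probes while B2m was nearly level. By brightest probes, RT1-S3 was the lowest class I gene among those with a mean signal of at least 8. The element, in either direction, is in capitals:
RT1-S3: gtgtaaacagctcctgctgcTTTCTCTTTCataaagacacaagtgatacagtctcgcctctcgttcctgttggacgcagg
RT1-N3: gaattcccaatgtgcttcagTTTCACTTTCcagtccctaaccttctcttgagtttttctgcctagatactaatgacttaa
B2m: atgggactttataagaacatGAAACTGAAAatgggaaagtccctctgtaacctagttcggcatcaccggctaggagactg
Tap1: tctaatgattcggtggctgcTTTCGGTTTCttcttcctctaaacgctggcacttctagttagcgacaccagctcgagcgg
Tap2: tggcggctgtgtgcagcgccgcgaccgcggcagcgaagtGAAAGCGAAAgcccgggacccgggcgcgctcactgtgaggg
Tapbp: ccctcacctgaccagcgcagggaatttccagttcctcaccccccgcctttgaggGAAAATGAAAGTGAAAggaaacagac
The Tapbp window holds 2 overlapping matches. The windows lie, in this order, at chr20:2675396-2675475, plus strand, chr20:2666262-2666341, plus strand, chr3:129549160-129549239, plus strand, chr20:4668605-4668684, minus strand, chr20:4652297-4652376, minus strand and chr20:4967878-4967957, minus strand. Among class I promoters 2 of 20 held these letters and among class II promoters 0 of 8, against 4.12% of all genes with a promoter. Of the costimulatory genes, the promoter of Cd80, which was not detected, held them as well. Only these exact letters were searched, so a promoter without them may hold the element in another form. Detected members with these letters ranged from 0.02 (B2m) to -0.77 (RT1-S3).

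Other genes of antigen processing were described by a list of 43 genes, 38 of which were detected. Of these, 29 lay below 0, against 47.4% of all genes, with a median of -0.14. At least 1.5-fold lower were 4 and at least 1.5-fold higher none, against 10.2% and 8.08% of all genes. The subunits of the immunoproteasome, the form of the proteasome that favours peptides fit for class I, were furthest from 0. Psmb9 read 11.74 in the propolis pool against 12.69 in the saline pool (-0.96), Psmb10 12.20 against 12.96 (-0.77) and Psmb8 11.02 against 11.73 (-0.71). The activator subunits lay near 0, with Psme1 at 0.11 and Psme2 at -0.10. Ctss, the cathepsin that trims the invariant chain of class II, read 12.08 against 12.79 (-0.70), and the receptor gene Cd40 7.25 against 7.80 (-0.55). The chaperone gene Calr, which helps class I to fold, differed by -0.49. Of the regulators, the interferon regulatory factor gene Irf1 differed by -0.18 and the interferon gamma receptor genes Ifngr1 and Ifngr2 by -0.36 and -0.23. The class II promoter factor genes Rfxank and Rfxap differed by -0.05 and -0.03, and Rfx5 was detected on neither array.

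The class II chain genes showed no shared direction, but the DR-type genes RT1-Da and RT1-Db1 and the invariant chain gene Cd74 were all higher in the propolis pool. RT1-Da, the alpha chain, read 10.33 in the propolis pool and 9.90 in the saline pool (0.42), and by its second probe 7.54 against 7.30 (0.25). RT1-Db1, the beta chain, read 9.62 against 9.33 (0.30), with 0.15 and 0.10 by its other probes. Cd74, which escorts class II chains to the endosome, read 12.20 against 11.74 (0.47, 1.38-fold higher) by its 1 probe. All 6 of these probes were above 0, and each difference was under 1.5-fold. These genes were set together for their direction, which fixes much of that count. Of all 25670 detected probes, 13670 lay above 0. The remaining DR-type gene, RT1-Db2, was lower (-0.14).

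RT1-Bb, a DQ-type beta chain, was level at 8.43 against 8.41 (0.02), and its other probe was not detected. RT1-Db2, a second DR-type beta chain, read 7.45 against 7.59 (-0.14). RT1-DMa encodes a chain of the DM molecule, which exchanges the invariant chain fragment for peptide. It read 9.49 against 10.41 (-0.92, 1.89-fold lower) and was the only class II gene past 1.5-fold. It had 1 probe, on chromosome 20 from 4843704 to 4844066 in the deposited coordinates, so that no second probe could check it. Without RT1-DMa the class II median was 0.16, and the class I median lay at -0.62 from it. Over all detected probes the medians were -0.45 for 32 class I probes and 0.13 for 8 class II probes.

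Class II promoters carry an X box and a Y box, read together by the complex that the class II transactivator joins. The X box core was searched as AGCAAC and the Y box as CCAAT, and windows of the DR-type chains and Cd74 are shown with both in capitals, in either direction:
RT1-Da: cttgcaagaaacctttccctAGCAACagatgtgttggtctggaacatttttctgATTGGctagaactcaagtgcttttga
RT1-Db1: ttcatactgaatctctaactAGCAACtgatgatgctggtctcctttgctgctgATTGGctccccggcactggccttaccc
RT1-Db2: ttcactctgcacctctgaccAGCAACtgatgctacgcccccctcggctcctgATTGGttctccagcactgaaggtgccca
Cd74: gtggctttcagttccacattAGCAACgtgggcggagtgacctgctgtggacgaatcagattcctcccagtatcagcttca
The windows lie at chr20:4515312-4515391, plus strand, chr20:4560216-4560295, minus strand, chr20:4541685-4541764, minus strand and chr18:56527115-56527194, plus strand. The X box core was held by 5 of 8 class II promoters and 4 of 20 class I promoters, against 15.8% of all genes. The Y box letters stood in 8 of 8 class II and 14 of 20 class I promoters, against 39.6% of all genes. They were thus more frequent in both classes than over all genes, and not limited to class II. The promoter of RT1-DMa held the Y box letters without the X box core in this form, and that of RT1-Bb did so too. In the Cd74 window the Y box letters do not occur, though they stand elsewhere in its promoter.

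Of the costimulatory genes, which deliver the second signal to T cells, only Cd83, a marker of mature dendritic cells, was detected. It read 7.86 against 7.94 (-0.08).

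The order of the genes in the RefSeq assembly was used to ask whether whole stretches of the MHC differed together. From RT1-M2 to Tapbp the assembly lists 443 genes, of which 89 others than the members were detected here. Of these 89 neighbours 49 lay below 0 and 40 above, against 47.4% and 52.4% of all genes, with a median of -0.02. The neighbours include the immunoproteasome genes Psmb8 (-0.71) and Psmb9 (-0.96). Class I genes were lower in each block that could be placed, with medians of -0.39 for 5 RT1-M genes, -0.55 for 4 genes of the RT1-N, RT1-S and RT1-T groups, -0.47 for 10 RT1-CE genes and -0.28 for RT1-A2, which lies beyond the class II genes. The RT1-M median is the value of RT1-M6-2, whose other probe was not detected. RT1-Cl, RT1-EC2 and RT1-N1 could not be placed.

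Within the class II block, RT1-Da (0.42), RT1-Db2 (-0.14), RT1-Db1 (0.30) and RT1-Bb (0.02) follow each other. They are followed by Tap2 (-0.18), Psmb8 (-0.71), Tap1 (-0.23), Psmb9 (-0.96) and RT1-DMa (-0.92), all lower in the propolis pool. The next detected gene, Brd2, which encodes a chromatin reader and has no part in presentation, was level at 0.02. The low value of RT1-DMa thus lies beside those of the transporter and immunoproteasome genes, and the other class II genes lie on the far side of them.

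**Figure D3:**
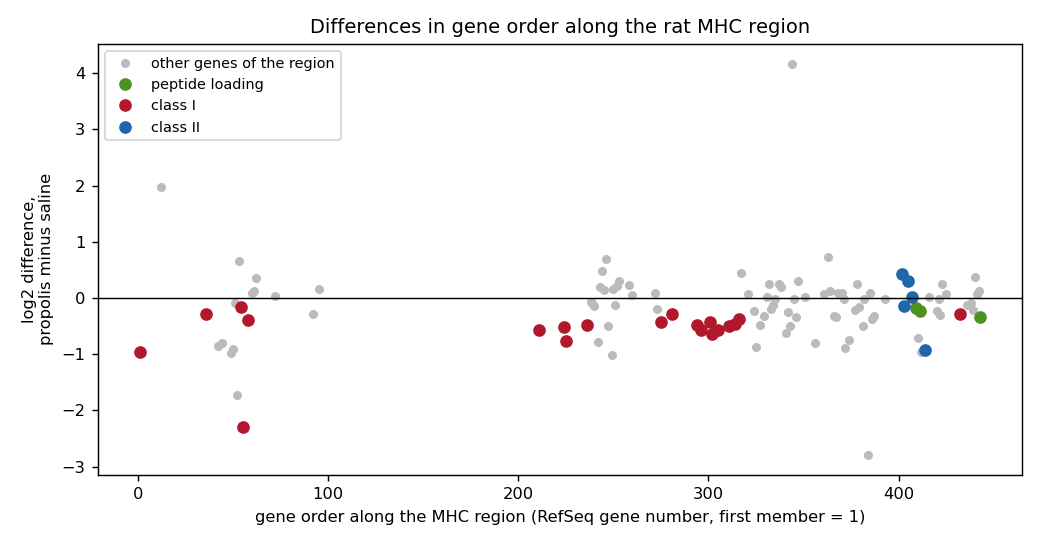
Log2 difference between the pools (y axis) against the position of each gene in the order of the RefSeq table (x axis, from RT1-M2 at 1 to Tapbp at 443), for class I (red), class II (blue) and loading genes (green) and for 89 other detected genes of the region (grey). Red points lie below 0 in every block, while grey points lie on both sides, with 49 of 89 below 0, against 47.4% of all genes.

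Lists of marker genes were read beside these values. The tissue label of liver was checked by hepatocyte markers, all 8 of which were detected on both arrays. Alb read 18.08 and 17.87 and Ttr 17.81 and 17.55 in the propolis and saline pools. The 8 hepatocyte genes had a median of -0.03. Of them 4 lay below 0 and 3 above, against 47.4% and 52.4% of all genes. They ranged from Cps1 at -0.56 to Cyp2e1 at 1.06. Interferon response genes were lower in 11 of 12 detected cases, against 47.4% of all genes. Their median was -0.87, or -0.74 once those with P on a single array are set to their bound. Among the lower genes were Isg15 (-1.23), Oasl2 (-1.22) and Ifitm3 (-1.13). The summed signal of that list was 13.36 against 14.20 on the log2 scale. Its part in the class I values was not tested.

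Over all genes 47.4% lay below 0 and 52.4% above, and the lists below are short. Macrophage markers were lower in 7 of 8 detected cases, with a median of -0.61 and a summed log2 signal of 15.30 against 15.84. Marco (-2.53) was the furthest from 0 and Adgre1 (0.05) the exception. T and NK cell markers were lower in 6 of 7 (median -0.41, summed 9.99 against 10.60) and sinusoidal endothelial markers in 5 of 5 (median -0.39, summed 13.07 against 13.36), while stellate cell markers were higher in 4 of 5 (median 0.26). Among B cell markers, Ms4a1 was detected on neither array and the detected genes went both ways. Cd22 read 6.77 against 7.44, Blk was at least 2.15-fold lower with P in the saline pool alone, and Cd79b was at least 2.26-fold higher with P in the propolis pool alone. Of 8 dendritic cell markers 5 were on the array, none was detected on both arrays, and Flt3 and Siglech were detected on the propolis array only, as Xcr1 and Ccr7 were on the saline array only. RT1-Da, RT1-Db1 and Cd74, which were set together for their direction, were higher in the propolis pool. RT1-DMa (-0.92) and Ctss (-0.70) were lower, as were most macrophage markers. In RNA of whole liver, fewer cells of a type and less RNA per cell cannot be told apart, and the part of cell makeup in the class I and class II values was not tested.

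**Figure D4:**
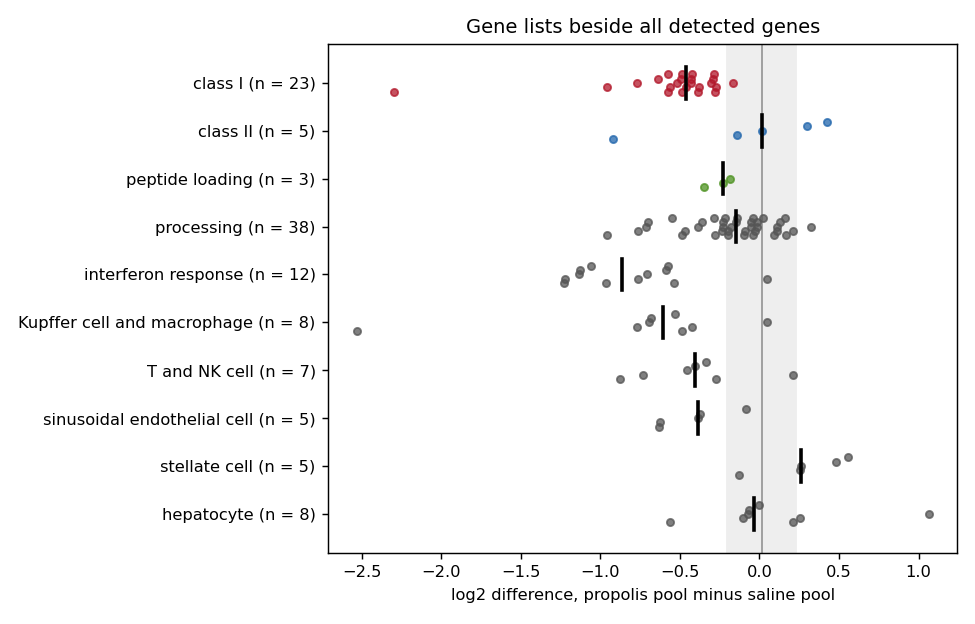
Log2 difference between the pools (x axis) for each detected gene of the class I, class II and peptide loading groups and of 7 further lists (y axis, n genes each; vertical offsets only separate points), with black bars for medians and the grey band and line for the middle 50% and the median of all 11916 genes. The class I median (-0.46) lies between those of the interferon (-0.87) and processing (-0.14) lists, and the class II median (0.02) lies on the median of all genes.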

How the data were processed

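Each liver RNA pool went onto 1 Agilent array with Cy3 as the only dye, per the labels' protocols. The submitters' processing notes name Feature Extraction 9.5 (Agilent). The authors deposited normalized log2 signals for 41012 probes with a letter P, M or A, and a linear fold ratio. The deposited ratio matches the difference of the log2 values within 1.84e-07. The sorted columns differ by at most 0.0255, which is how quantile normalization leaves them; the sources used here do not name the background correction. P stood on 59.4% of probes on each array.

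Values were used as deposited. A gene was represented by the probe of highest mean signal among those with P on at least 1 array. All detected members could be named, with up to 6 genes furthest from 0 in the processing list and further ones chosen after their values were seen. A gene with P on 1 array has a bound against the lowest P value (3.83). The members and lists were chosen with earlier results of these data known. Gene IDs of 41 of 44 members matched RefSeq (GRCr8). The fold rule was 2-fold. The calculation was checked on simulated data, and no difference between the pools was tested. Python 3.11.15, numpy 2.4.6, pandas 2.3.3, statsmodels 0.14.6 and matplotlib 3.10.9 were used. The alternatives were other scalings, filters, probe choices, thresholds and class definitions. Having 1 array a group limits precision. Some results are not reported here.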

Additional observations from a re-analysis of the deposited data

How the results depend on the processing

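The class I median lay between -0.46 and -0.41 under the 11 alternatives run for it, the class II median between -0.0037 and 0.16 under 11, and the class I minus class II difference between -0.62 and -0.43 under 13. The class II median was just below 0 with loess centring on signal. The alternatives that used all detected probes, left out RT1-DMa, or kept class I genes of mean signal at least 8 were chosen after seeing the data. The processing list median lay between -0.16 and -0.12. The count of members at least 2-fold lower was 1 of 35 as reported, against 5.09% of all genes. At a threshold of 1.5-fold it was 5 of 35, against 10.2% of all genes. With P on both arrays it was 0, against 295 of all 10977 such genes. It was 2 with loess centring, where RT1-M2 passed at -1.03. It was 0 with the series matrix values, with 50 signal units added or with RT1-M4 at its bound. Shares of all genes are not given for these last settings. The count at least 2-fold higher was 0 under every alternative run for it, the 1.5-fold threshold included. Of 182 class I gene values under the alternatives, 180 lay below 0, the exceptions being RT1-CE5 (0.51) and RT1-EC2 (0.01) read by the probe with the smallest difference. RT1-M4 (-0.35) and RT1-M2 (-0.32), both dim, moved most when 50 signal units were added. Median centring and quantile normalization left these medians as they were, since the deposited columns already had the same median (5.07). The series matrix values differ from the deposited ones by at most 0.005. These alternatives are therefore weak checks of the medians. Redoing the background correction and blocking by array were not run, since only normalized values of 1 array per group were used. No paired analysis was possible because each group has a single array.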

Other observations

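Probes without a gene symbol that name an MHC class in their description were not members and were chosen here after their values were seen. Of 7 such class I probes 5 were detected, and 4 of these lay below 0, against 46.6% of all detected probes. The 4 values were -0.14 for an RT1.C-type protein (12.03 in the propolis pool against 12.17 in the saline pool), -0.25 for a probe at 8.10 against 8.35, -0.56 for LOC309600 and -1.44 for a class Ib alpha chain fragment (5.08 against 6.52). A probe named after a mouse class I gene read 11.58 against 11.50 (0.07). Of 4 class II probes, all detected, 2 lay below 0, against 46.6% of all detected probes. By measured values their median was -0.52, below that of -0.25 for the 5 class I probes. This is the reverse of the order of the classes among the members. A second RT1-D beta chain sequence of another haplotype differed by 0.12, beside 0.30 for the brightest RT1-Db1 probe. LOC309625, described as similar to a class II beta chain, read 6.29 against 5.75 (0.54). Both probes described as like the class II I-A alpha chain were dim and lower in the propolis pool: LOC100365616 read 3.83 against 4.99 (-1.16), and LOC100362476, detected on the saline array only, was lower by at least 1.00 log2 units. The named alpha chain gene of that type, RT1-Ba, was detected on neither array by its 2 probes.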
